A study of Mus musculus with 8 samples.

Results

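The genes of the tumour necrosis factor (TNF) superfamily were examined for binding of DC-SCRIPT, the zinc finger protein encoded by Zfp366, in mouse splenic dendritic cells. All protein-coding genes with a symbol starting with Tnfsf or Tnfrsf were taken from the RefSeq annotation of build GRCm38.p6, and Tnf, Lta and Ltb were added. This gave 35 of 21887 protein-coding genes, 15 for ligands and 20 for receptors. The rule itself uses gene names and no measured value. A peak was given to the gene that contains its centre or, when its centre lay in no protein-coding gene, to the gene with the nearest end.

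DC-SCRIPT was profiled by CUT&Tag, in which an antibody directs a transposase to the DNA around a bound protein. Conventional dendritic cells of types 1 and 2 (cDC1 and cDC2) came from spleens of female C57BL/6 mice that were wild type (zfp366+/+) or lacked the gene (zfp366-/-), and each of the 8 libraries was a pool of mice. For cDC1 the labels give 3 wild-type and 2 knockout libraries, and for cDC2 they give 1 and 2. For each subset the data are 1 list of peaks, each 191 bp wide, in which pooled wild-type tags exceeded pooled knockout tags at least 4-fold. The mice's ages and the deleted part of Zfp366 were not given in the sources used here.

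TNF superfamily ligands are mostly trimeric proteins of the cell surface that are also released, and they bind receptors with cysteine-rich extracellular domains. Receptors with a death domain can start apoptosis, others recruit TRAF adaptors and activate NF-kB, and decoy receptors bind ligand without passing on a signal. On dendritic cells, several ligands of the family costimulate T cells, and others support B cells or the architecture of the spleen.

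Depth differed between the tag sets: cDC1 had 35.5 M wild-type and 12.1 M knockout tags, and cDC2 had 4.77 M and 6.83 M. Levels are given as normalised tags, the tags in a peak after the authors scaled the tag set to 10000000. No value of a single library was used, so no spread between mouse pools can be given, no test between genotypes was made, and intervals cover counting error only. Since every listed peak passed the fold limit, a fold describes a peak and a gene without a peak is one where none passed. The fold and the score of a peak are the authors' own. Knockout values start at 0.5 tag, which may mean no tag, and at such peaks the fold is given as a lower bound against a floor of 3 knockout tags in the pooled set. Of the cDC1 marker genes Xcr1, Clec9a, Batf3, Irf8, Cadm1 and Tlr3, 6 of 6 had a cDC1 peak and 3 a cDC2 peak. Of the cDC2 markers Sirpa, Itgam, Clec4a4, Irf4, Cd209a and Clec10a, 4 of 6 had a cDC1 peak and 3 a cDC2 peak. Over all protein-coding genes, 51.4% had a cDC1 peak and 9.54% a cDC2 peak. Groups of 6 genes are too small to read against these shares. The lists hold binding and no expression, so they check neither the sort nor the loss of Zfp366.

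Sequences are shown for the promoters that lay under a peak, because these are the places where a peak can be tied to a start of a member gene. Of the 35 members, 28 were matched to a RefSeq promoter window, from 250 bases before to 50 after the start, and 10 of these had a peak that overlapped it, 7 in cDC1 and 5 in cDC2. The share of all promoter windows under a peak was not counted, so this count is not read as a trait of these genes. The 250 bases before the start are printed 5′ to 3′ on the gene's strand for the 5 members whose window lay outside any protein-coding gene and whose peak ranked highest by score within its list. Capitals mark the bases under the peak, in cDC1 for Tnf, Tnfrsf21 and Tnfsf10 and in cDC2 for Tnfrsf1a and Tnfsf15. The sequences are from RefSeq, build GRCm38.p6, at chr17:35202008-35202257 on the minus strand for Tnf, chr6:125349473-125349722 on the plus strand for Tnfrsf1a, chr17:43016305-43016554 on the plus strand for Tnfrsf21, chr3:27316827-27317076 on the plus strand for Tnfsf10, and chr4:63745060-63745309 on the minus strand for Tnfsf15.
Tnf: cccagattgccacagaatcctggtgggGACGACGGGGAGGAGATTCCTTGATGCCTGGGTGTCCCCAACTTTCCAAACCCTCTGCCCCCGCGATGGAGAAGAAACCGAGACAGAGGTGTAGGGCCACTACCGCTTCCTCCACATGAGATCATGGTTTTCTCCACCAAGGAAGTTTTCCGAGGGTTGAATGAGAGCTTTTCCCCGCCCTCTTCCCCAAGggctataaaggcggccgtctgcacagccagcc
Tnfrsf1a: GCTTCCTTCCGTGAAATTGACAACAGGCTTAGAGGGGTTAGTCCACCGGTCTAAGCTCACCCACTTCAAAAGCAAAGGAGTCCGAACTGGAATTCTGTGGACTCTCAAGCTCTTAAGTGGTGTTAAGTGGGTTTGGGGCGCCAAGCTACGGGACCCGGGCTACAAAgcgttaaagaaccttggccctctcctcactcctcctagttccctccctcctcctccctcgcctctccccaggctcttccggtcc
Tnfrsf21: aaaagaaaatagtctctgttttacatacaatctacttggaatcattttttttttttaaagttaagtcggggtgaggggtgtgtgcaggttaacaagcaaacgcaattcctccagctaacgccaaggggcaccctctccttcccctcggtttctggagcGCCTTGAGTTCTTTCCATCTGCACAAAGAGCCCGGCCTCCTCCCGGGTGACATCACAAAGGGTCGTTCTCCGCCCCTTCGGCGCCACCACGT
Tnfsf10: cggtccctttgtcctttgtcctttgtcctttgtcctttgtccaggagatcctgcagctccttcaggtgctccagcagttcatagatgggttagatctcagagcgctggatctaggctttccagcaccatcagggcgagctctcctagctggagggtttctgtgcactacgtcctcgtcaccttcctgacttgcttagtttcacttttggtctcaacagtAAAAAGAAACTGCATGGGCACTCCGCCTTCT
Tnfsf15: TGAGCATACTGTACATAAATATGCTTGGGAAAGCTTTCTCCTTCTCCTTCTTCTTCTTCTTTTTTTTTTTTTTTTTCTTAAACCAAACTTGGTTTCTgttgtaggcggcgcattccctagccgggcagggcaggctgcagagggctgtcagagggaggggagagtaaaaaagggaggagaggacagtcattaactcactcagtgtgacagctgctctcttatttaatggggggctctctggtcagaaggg
Each of these windows was searched on both strands for 5 motifs: TGANTCA for AP-1, GGAAGTG for ETS factors, GAAA followed by any 2 bases and GAAA for IRF factors, GGGA, any base, TT, any base and CC for NF-kB, and GGGCGG for Sp1. Only the Sp1 letters were found, as the complement CCGCCC. They stood at -49 to -44 from the start in Tnf and at -23 to -18 in Tnfrsf21, inside the capitals in both. The same letters occur in 32.7% of the 32851 promoter windows of this length, against 6.75% for the AP-1 motif, 8.55% for ETS, 2.98% for IRF and 0.98% for NF-kB. A match describes letters and not a bound site, and the windows without a match show nothing about those factors. None of these motifs overlapped another.

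In cDC1, 22 of the 35 genes (62.9%) had at least 1 peak, against 51.4% of all protein-coding genes. In cDC2, 13 of 35 (37.1%) did, against 9.54%. Counting only peaks inside a gene or within 10 kb of it, the members reached 21 of 35 (60.0%) in cDC1 against 47.8% of all genes, and 12 of 35 (34.3%) in cDC2 against 7.51%. With peaks centred inside the gene only, 13 of 35 (37.1%) had one in cDC1, next to a background of 37.3%, and 7 of 35 (20.0%) in cDC2, next to 5.33%. The cDC1 share was thus near the background by the narrowest count and above it by the wider ones, while the cDC2 share was above it by each of the 3. No test of the list was made, so these shares are descriptions.

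All 13 members with a cDC2 peak also had a cDC1 peak, as did 1974 of the 2087 protein-coding genes with a cDC2 peak. Among the members these were the ligand genes Tnfsf18, Tnfsf15, Tnfsf4, Tnfsf9, Tnfsf13b, Lta and Ltb. The receptor genes were Tnfrsf1a, Tnfrsf1b, Tnfrsf8, Tnfrsf9, Tnfrsf13b and Tnfrsf23. Another 9 had a peak in the cDC1 list only, next to 9270 of the 21887 protein-coding genes. They were Tnf, Tnfsf8, Tnfsf10, Tnfrsf21, Tnfrsf11a, Tnfrsf14, Tnfrsf10b, Tnfrsf12a and Tnfrsf18. The remaining 13 had none in either list, next to 10530 of the 21887 genes. Of the ligands, 10 of 15 had cDC1 peaks and 7 of 15 cDC2 peaks, and of the receptors 12 of 20 and 6 of 20. The wild-type set of cDC2 was the shallower, and the weakest peak in its list held 12.6 normalised tags. Of the 75 cDC1 peaks of the members, 47 reached that level, at 18 of the 35 genes (51.4%), against 39.6% of all protein-coding genes under the same limit. Of the genes listed in cDC1 only, Tnfsf10, Tnfrsf10b and Tnfrsf18 stayed below that level, with at most 9.59, 5.78 and 10.9. Tnf (38.3), Tnfrsf21 (36.1), Tnfrsf11a (30.9), Tnfrsf14 (29.9), Tnfrsf12a (24.0) and Tnfsf8 (21.7) passed it. No cDC2 level is listed where no cDC2 peak passed, and 1 wild-type library of cDC2 was labelled. A gene listed in cDC1 only is therefore not shown to differ between the subsets.

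**Figure D1:**
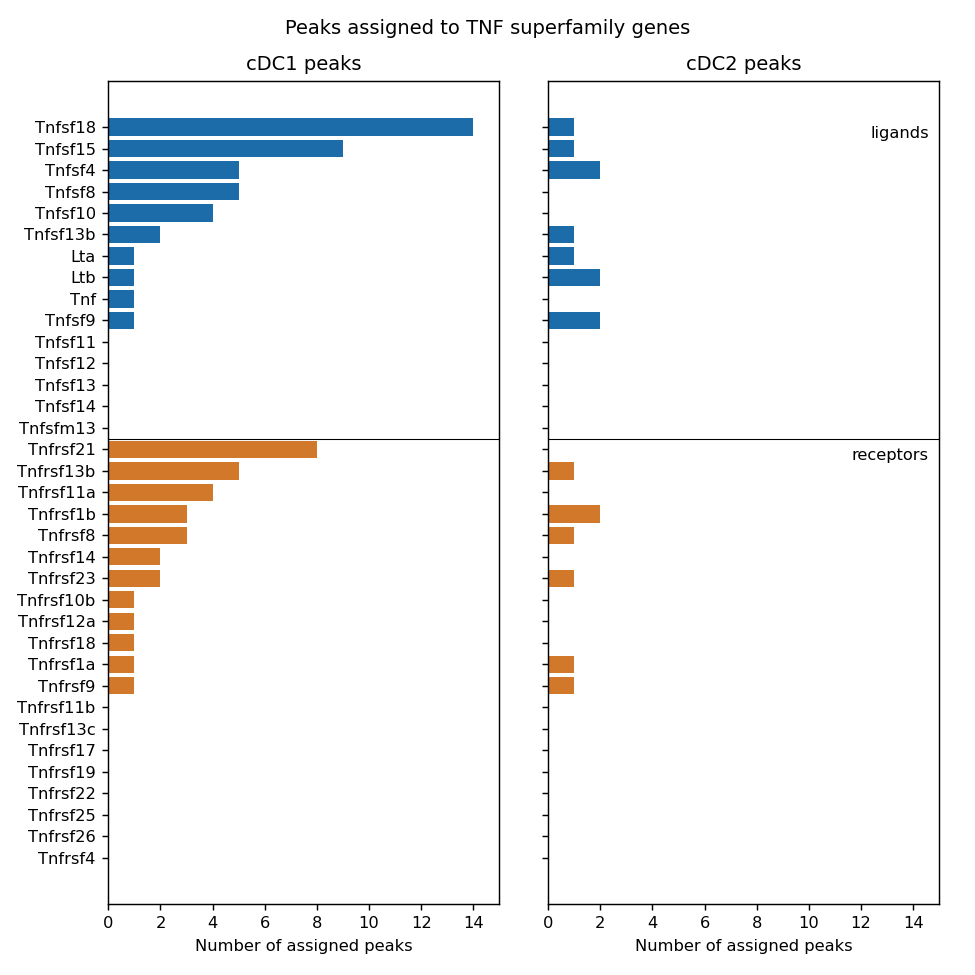
Number of peaks assigned to each of the 35 TNF superfamily genes in cDC1 (left) and cDC2 (right), ligand genes in blue above the line and receptor genes in orange below it. Tnfsf18 has 14 cDC1 peaks and 1 cDC2 peak, and no member has more than 2 cDC2 peaks.

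The members held 75 cDC1 peaks, 43 at ligand genes and 32 at receptor genes, and 17 cDC2 peaks, 10 and 7. Set against the chromosome each gene occupies together with its share of the gaps to the neighbouring genes, this is 3.10 cDC1 peaks per 100 kb for the members and 1.16 for all protein-coding genes. The median length so counted was 34.7 kb for the members and 45.7 kb for all genes. The 3 members with the most peaks were long by this count, Tnfsf18 with 186.6 kb, Tnfsf15 with 114.6 kb and Tnfrsf21 with 233.1 kb. Tnfrsf11b with 268 kb and Tnfsf11 with 216.9 kb were long too and had no peak. Tnfrsf13b held 5 cDC1 peaks over 53.4 kb. The part of this length in the counts was not tested. Peaks were unevenly spread. Tnfsf18 held 14 cDC1 peaks, a number that 166 protein-coding genes reached or passed, Tnfsf15 held 9 and Tnfrsf21 held 8. Without Tnfsf18, a check chosen after its count was seen, 61 peaks remained.

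By level, the members' peaks were close to the rest of their lists. The median wild-type level of the cDC1 peaks was 15.6 normalised tags, with a range of 5.07 to 73.7, and that of the whole list was 15.5. The median fold over knockout was 11.7 for the members and 10.2 for the list, and the median knockout level was 1.65 normalised tags in both. Knockout tags stood at the lowest listed value in 15 of the 75 peaks (20.0%), against 20.1% of the list. In cDC2 the medians were 26.2 normalised wild-type tags and a 6.67-fold difference, against 24.1 and 7.42 in the list, with knockout medians of 4.39 and 3.66 normalised tags. The middle 50% of the members' cDC1 peaks ran from 10.1 to 24.8 normalised wild-type tags, against 9.87 to 25.4 in the list. In cDC2 it ran from 20.9 to 32.5, against 18.8 to 32.5. Ligand and receptor genes had medians of 15.2 and 15.6 normalised tags in cDC1 and of 27.2 and 26.2 in cDC2.

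**Figure D2:**
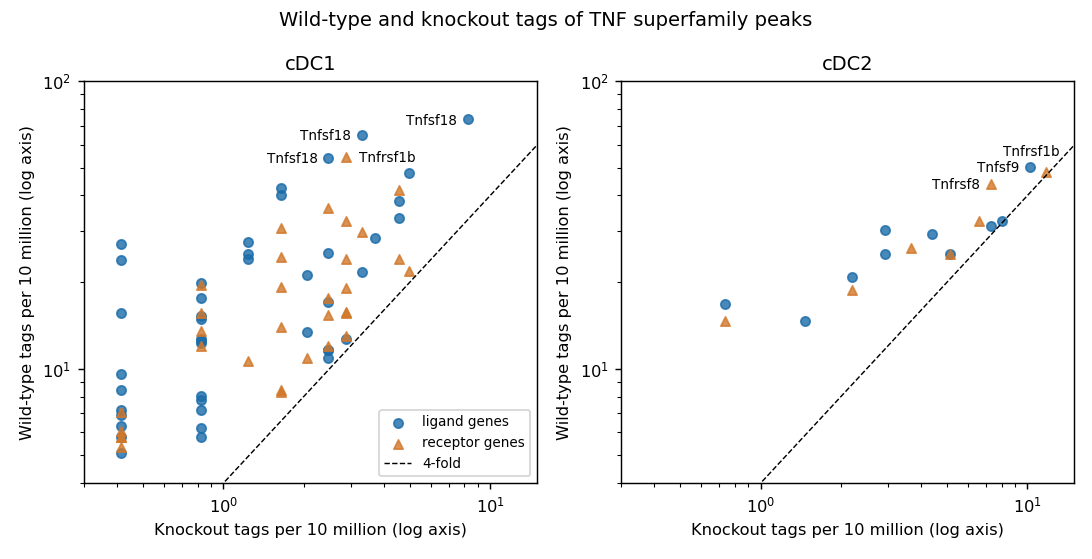
Wild-type against knockout tags scaled to 10000000 (log axes) for each peak of the 35 genes in cDC1 (left, 75 peaks) and cDC2 (right, 17 peaks), with circles for ligand genes, triangles for receptor genes and a dashed line at the 4-fold limit of the lists. Every peak lies above the line because of that limit, and the column of points at the far left holds the 15 cDC1 peaks at the lowest knockout value.

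Tnfsf18 encodes the ligand of GITR, a costimulatory receptor of T cells, and lies on chromosome 1 from 161494657 to 161505290 on the plus strand. Its 14 cDC1 peaks reached from 31.3 kb before the gene to 89.4 kb after it, and 3 lay inside. The highest-scoring was at 161496482 to 161496672, 1.92 kb after the start, with 65.0 normalised wild-type tags against 4 knockout tags and a fold of 19.7 (95% limits 7.61 and 73.1). The peak with the most tags, at 161500721 to 161500911, held 73.7 normalised tags against 10 knockout tags, an 8.94-fold difference (95% limits 4.78 and 18.8). Another inside the gene, at 161500219 to 161500409, held 40.3. Beyond the gene, 6 peaks lay in the long noncoding RNA gene Gm31815. Among them the peak at 161552073 to 161552263, 46.9 kb past the gene end, reached 54.1 normalised tags with a fold of 21.9 (95% limits 7.38 and 107.1). Upstream, a peak at 161478402 to 161478592 held 27.1 normalised tags with knockout tags at the lowest value, 11.0-fold above the floor. In cDC2 a single peak was listed, inside the gene at 161500728 to 161500918, with 31.4 normalised tags and a fold of 4.29 (95% limits 1.48 and 15.1).

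Tnfsf4, for OX40 ligand, another costimulator of T cells, is the neighbour of Tnfsf18 on chromosome 1, from 161395438 to 161418206. It held no peak inside or within 10 kb. Its 5 cDC1 peaks lay between 19.8 kb and 66.0 kb below its lower end, and the highest, at 161375567 to 161375757, reached 33.3 normalised tags with a fold of 7.36 (95% limits 3.00 and 18.7). Its 2 cDC2 peaks lay in the same stretch, at 161329253 to 161329443 with 20.9 normalised tags and at 161376112 to 161376302 with 25.1. The folds were 9.53 (95% limits 1.52 and 67.1) and 8.93 (95% limits 1.91 and 79.0). Together the pair of genes held 19 cDC1 peaks over 265.4 kb, and 3 cDC2 peaks. For peaks between genes the assignment rests on distance alone.

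**Figure D3:**
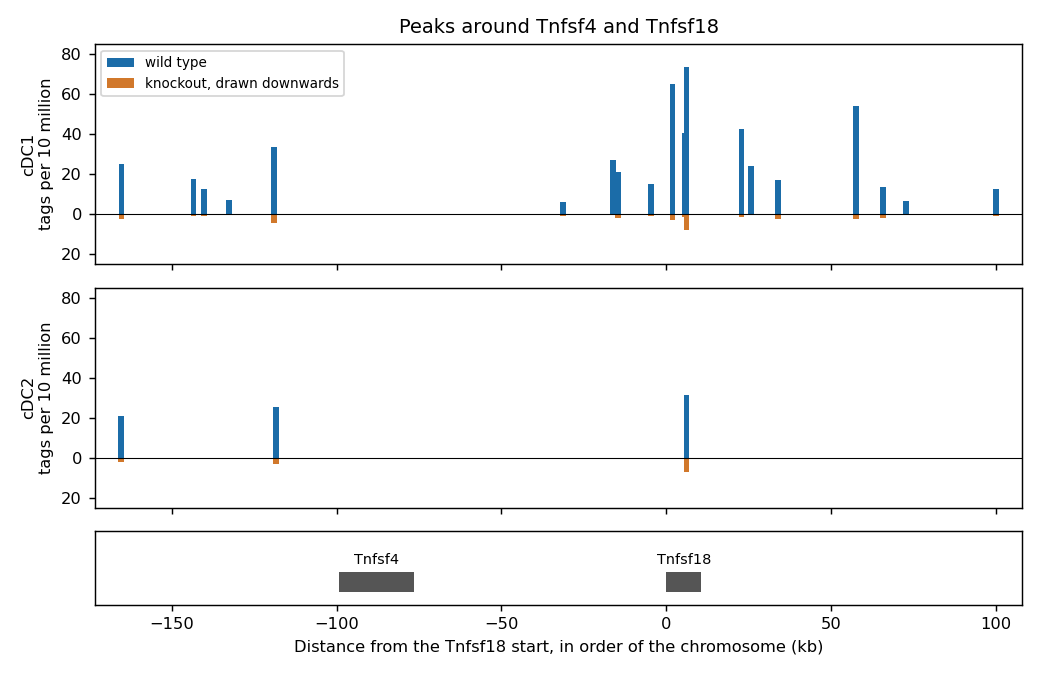
Peaks assigned to Tnfsf4 and Tnfsf18 by distance from the Tnfsf18 start (kb), as bars of wild-type tags scaled to 10000000 upwards and knockout tags downwards, for cDC1 (top) and cDC2 (middle), with the genes as boxes (bottom). The tallest cDC1 bars, 65.0 and 73.7, stand inside Tnfsf18, and 1 of the 3 cDC2 peaks lies at the second of these.

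Tnfsf15 encodes TL1A, which costimulates T cells through the death domain receptor DR3, and Tnfsf8 encodes CD30 ligand. They are neighbours on chromosome 4, on the minus strand, and neither had a peak inside the gene. Tnfsf15, from 63724600 to 63745059, held 9 cDC1 peaks with 5.78 to 27.5 normalised tags, 7 of them in the noncoding gene Gm42294, which overlaps it. The highest, at 63745433 to 63745623, lay 469 bp before the start and held 27.5 normalised tags against 1.5 knockout tags, a fold of 22.2 (95% limits 4.52 and 140.3). The only cDC2 peak was at 63745213 to 63745403, 249 bp before the start and partly within the printed window. It held 16.8 normalised tags with knockout tags at the lowest value, 3.82-fold above the floor. The cDC1 and cDC2 peaks before the Tnfsf15 start did not overlap each other. Tnfsf8, from 63831202 to 63861508, held 5 cDC1 peaks of 7.75 to 21.7 normalised tags, the nearest 8.98 kb from the gene, and none in cDC2.

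Tnf, the cytokine that names the family, and the lymphotoxin genes Lta and Ltb, whose products shape lymphoid tissue, lie side by side on chromosome 17. Tnf, from 35199367 to 35202007 on the minus strand, had 1 cDC1 peak, at 35202040 to 35202230. It lay wholly within the printed promoter, its centre 128 bp before the start, and held 38.3 normalised tags against 5.5 knockout tags, an 8.48-fold difference (95% limits 3.47 and 21.5). Tnf had no peak in the cDC2 list. The Ltb peak in cDC1, inside the gene at 35195563 to 35195753, held 47.9 normalised tags with a fold of 9.71 (95% limits 4.36 and 26.8). In cDC2 the overlapping Ltb peak at 35195463 to 35195653 held 32.5 normalised tags with a fold of 4.16 (95% limits 1.42 and 11.9). A further cDC2 peak, 1.48 kb before the Ltb start at 35192937 to 35193127, held 30.4, with a fold of 10.4 (95% limits 2.50 and 96.7). At Lta both peaks lay before the gene, at 35208323 to 35208513 in cDC1 with 24.0 normalised tags and at 35209990 to 35210180 in cDC2 with 29.3. Their folds were 19.4 (95% limits 3.90 and 122.0) and 6.67 (95% limits 1.86 and 36.2), and they did not overlap. The cluster of these genes thus held 3 peaks in each list, and 1 region, at Ltb, was in both.

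**Figure D4:**
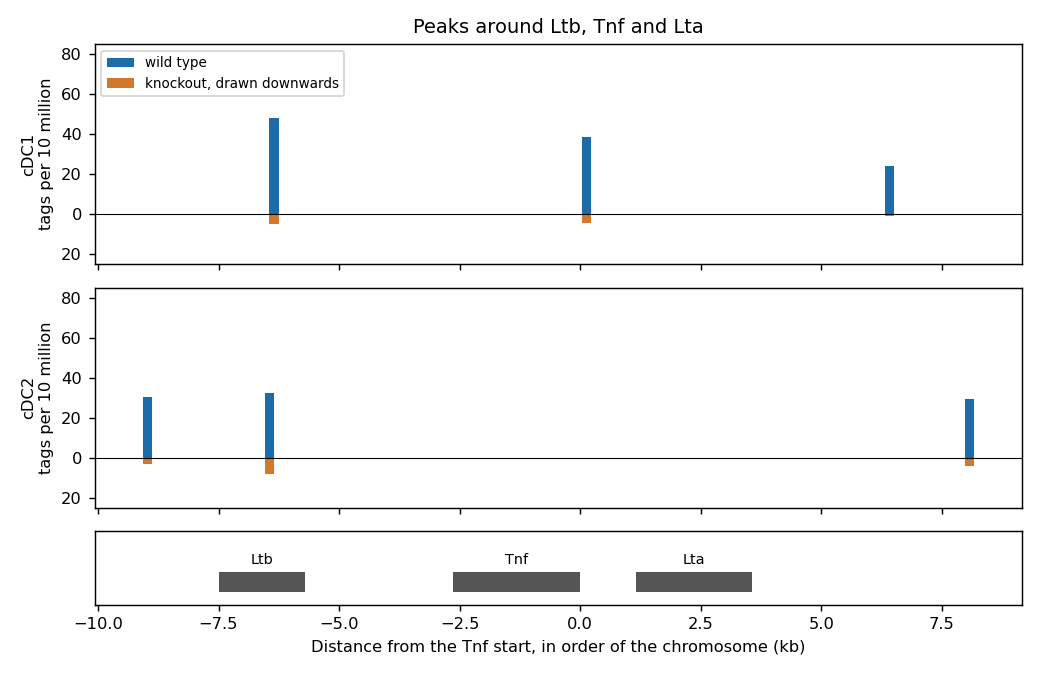
Peaks assigned to Ltb, Tnf and Lta by distance from the Tnf start (kb), as bars of wild-type tags scaled to 10000000 upwards and knockout tags downwards, for cDC1 (top) and cDC2 (middle), with the genes as boxes (bottom). Each list has 3 peaks; the Tnf start carries 38.3 tags in cDC1 and no listed peak in cDC2.

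Of the other ligand genes, Tnfsf9 encodes the ligand of CD137, a costimulatory receptor of CD8 T cells. Its cDC1 peak, 5.26 kb above the upper gene end on chromosome 17 at 57112921 to 57113111, held 28.5 normalised tags with a fold of 7.67 (95% limits 2.87 and 21.7). The overlapping cDC2 peak at 57113030 to 57113220 held 50.3, the most of the 17 cDC2 peaks of the members, with a fold of 4.90 (95% limits 2.05 and 13.5). Another cDC2 peak, 718 bp below the lower end, held 25.1. Tnfsf13b, for the B cell survival factor BAFF, had its highest cDC1 peak on chromosome 8 at 10006650 to 10006840, 112 bp after an annotated start, with 25.1 normalised tags and a fold of 20.4 (95% limits 4.09 and 127.6). The cDC2 peak there, at 10006588 to 10006778, held 14.7 with a fold of 10.01 (95% limits 1.29 and 451.3). Tnfsf10 encodes TRAIL, a ligand that can kill target cells. Its 4 cDC1 peaks were all low, at 5.07 to 9.59 normalised tags. The highest covered the start, where the printed window ends, at 27317046 to 27317236 of chromosome 3. With knockout tags at the lowest value it was 3.88-fold above the floor. No peak in either list was assigned to Tnfsf11, which encodes RANKL, to Tnfsf12 or Tnfsf13, which encode TWEAK and APRIL, to Tnfsfm13, annotated over both of these, or to Tnfsf14, which encodes LIGHT.

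Among the receptor genes, both TNF receptor genes had peaks in both lists. Tnfrsf1b encodes TNFR2, a receptor without a death domain, and lies on chromosome 4 from 145212368 to 145246870 on the minus strand. In cDC1 its peak at 145233965 to 145234155, inside the gene, held 54.6 normalised tags with a fold of 18.9 (95% limits 6.38 and 61.5). A second inside it, at 145240853 to 145241043, held 41.9, with a fold of 9.29 (95% limits 3.81 and 23.5). In cDC2 the first of these places held 48.2 normalised tags with a fold of 4.11 (95% limits 1.78 and 10.6), and the second had no listed peak. Tnfrsf1a, for the death domain receptor TNFR1, had 1 peak in each list at different places. The cDC1 peak lay inside the gene on chromosome 6 at 125357680 to 125357870, with 24.5 normalised tags and a fold of 15.1 (95% limits 3.997 and 124.8). The cDC2 peak at 125349448 to 125349638 covered most of the printed promoter, its centre 180 bp before the start, and held 32.5 with a fold of 4.92 (95% limits 1.60 and 16.0).

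Of the other death domain receptors, Tnfrsf21, which encodes DR6, held 8 cDC1 peaks on chromosome 17, of which 5 lay inside the gene, 1 of them over its start. The peak at the start, at 43016463 to 43016653, held 17.6 normalised tags with a fold of 7.12 (95% limits 2.31 and 35.2). The levels were higher past the gene end, at 32.6 just beyond it and at 36.1 in the peak 48.9 kb away, at 43138024 to 43138214, with folds of 11.4 (95% limits 3.77 and 37.0) and 14.7 (95% limits 4.88 and 71.7). Tnfrsf10b, for the TRAIL receptor, had a single low cDC1 peak of 5.78 normalised tags, 478 bp below its lower end. Tnfrsf25, for DR3, had none. In cDC2, of these 4 genes, Tnfrsf1a had a peak.

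Costimulatory receptors act mainly on T cells, and 4 of the 5 listed under this role had a cDC1 peak, next to 51.4% of all protein-coding genes: Tnfrsf8, Tnfrsf9, Tnfrsf14 and Tnfrsf18. A group of 5 genes is too small to read against that share. The exception was Tnfrsf4, which encodes OX40. Tnfrsf8, for CD30, on chromosome 4, held its highest cDC1 peak within the gene, at 145300324 to 145300514, with 21.9 normalised tags and a fold of 4.41 (95% limits 1.95 and 12.5). The cDC2 peak that overlapped it by 23 bp, at 145300492 to 145300682, held 44.0 with a fold of 6.00 (95% limits 2.20 and 20.4). Tnfrsf9, for CD137, had 1 peak in each list near a start inside the gene. On chromosome 4 the cDC1 peak at 150927523 to 150927713 held 12.0 normalised tags with a fold of 4.96 (95% limits 1.57 and 24.7), and the cDC2 peak at 150927566 to 150927756 held 25.1 with a fold of 4.90 (95% limits 1.30 and 18.3). Tnfrsf14, which encodes HVEM, the receptor of LIGHT, reached 29.9 normalised tags in cDC1 at 829 bp before the gene. Tnfrsf18, for GITR, had 1 cDC1 peak of 10.9 normalised tags in its promoter on chromosome 4, from 156026084 to 156026274, with a fold of 5.40 (95% limits 1.41 and 22.5).

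Of the receptors of B cell factors, Tnfrsf13b, which encodes TACI, held 5 cDC1 peaks on chromosome 11, while Tnfrsf13c and Tnfrsf17, for the BAFF receptor and BCMA, had none. The Tnfrsf13b peaks held 7.05 to 19.5 normalised tags. The highest, 10.04 kb before the gene at 61116148 to 61116338, had a fold of 23.6 (95% limits 4.10 and 945.5), and the cDC2 peak over it, at 61116190 to 61116380, held 18.8 with a fold of 9.05 (95% limits 1.33 and 61.2). Tnfrsf11a, which encodes RANK, the receptor of RANKL, held 4 cDC1 peaks on chromosome 1. The highest, inside the gene at 105787116 to 105787306, reached 30.9 normalised tags with a fold of 18.7 (95% limits 5.09 and 157.3). A weaker peak of 15.6, at 105780396 to 105780586, lay in its promoter, with a fold of 5.42 (95% limits 1.74 and 17.9). Tnfrsf12a, for the TWEAK receptor Fn14, had 1 peak of 24.0 inside the gene. Of the decoy receptor genes, Tnfrsf23 had 2 cDC1 peaks of 14.0 and 15.8 normalised tags and 1 cDC2 peak of 14.7, all centred within 1 kb of its start on chromosome 7, while Tnfrsf22 and Tnfrsf11b, the latter for osteoprotegerin, had none. The Tnfrsf23 peak in cDC2, at 143685875 to 143686065, had knockout tags at the lowest value and was 3.35-fold above the floor. Tnfrsf19 and Tnfrsf26 also had no peak.

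The positions of the peaks were counted separately for ligand and receptor genes, with no test between them. In cDC1, 27 of the 43 ligand peaks (62.8%) lay over 10 kb from the gene and 8 (18.6%) inside it. Of the 32 receptor peaks, 6 (18.8%) lay over 10 kb away and 17 (53.1%) inside. Over all members, 25 of 75 (33.3%, exact 95% limits 22.9% and 45.2%) lay inside a gene, against 56.0% of the whole list. Over 10 kb from the gene lay 33 of 75 (44.0%, exact 95% limits 32.5% and 55.9%), against 24.6%. Tnfsf18, Tnfsf15, Tnfsf4 and Tnfsf8 hold most of the distant ligand peaks, and peaks of 1 gene share their surroundings, so these intervals cover counting only. In cDC2, 7 of 17 (41.2%, exact 95% limits 18.4% and 67.1%) lay inside the gene, against 50.1% of the list. A further 2 of 17 (11.8%, exact 95% limits 1.46% and 36.4%) lay over 10 kb from the gene, against 28.4% of the list. Between 1 kb and 10 kb from it lay 5 of 17 (29.4%, exact 95% limits 10.3% and 56.0%), against 13.7%. These cDC2 limits hold the list shares. The shared Tnfrsf13b region fell on both sides of the 10 kb limit, at 10.04 kb in cDC1 and 9.998 kb in cDC2. Of the 50 cDC1 peaks outside the protein-coding genes, 17 lay in a long noncoding RNA gene, most of them in Gm31815 or Gm42294. Where a start was matched, 11 of 68 cDC1 peaks and 5 of 13 cDC2 peaks were centred within 1 kb of it. Neither share was counted over the whole lists, so these counts are not read as traits of the members.

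The subsets were then compared where their peaks met. Of the members' 17 cDC2 peaks, 10 shared at least 1 bp with a cDC1 peak, next to 63.7% of all cDC2 peaks. From the cDC1 side this is 10 of 75 peaks, next to 5.61% of that list. Wild-type levels at the 10 regions had a median ratio of cDC1 to cDC2 of 1.08, and the 1767 regions shared over the whole lists one of 1.09. In 6 regions the cDC1 level was higher and in 4 the cDC2 level, next to 1007 and 754 of the 1767. The exact 95% interval of the ratio left out 1 in 4 regions. How often it did so over all shared regions was not counted, so no background stands beside these 4. At the Tnfsf18 region the ratio was 2.35 (95% limits 1.39 and 4.25), from 73.7 normalised tags in cDC1 and 31.4 in cDC2. Levels were higher in cDC2 at the other 3: Tnfsf9 with a ratio of 0.567 (95% limits 0.360 and 0.925), Tnfrsf8 with 0.498 (95% limits 0.306 and 0.853) and the region 7.75 kb before Tnfrsf1b, at 145254522 to 145254712 in cDC1 and 145254421 to 145254611 in cDC2, with 0.496 (95% limits 0.253 and 0.961). That last region held 13.0 normalised tags in cDC1 and 26.2 in cDC2, with folds of 4.49 (95% limits 1.44 and 15.1) and 7.15 (95% limits 1.70 and 33.9). The remaining 6, at Tnfsf13b, Ltb, Tnfsf4, Tnfrsf13b, Tnfrsf9 and the first region of Tnfrsf1b, had intervals that held 1. At Tnfsf4 the cDC1 peak at 161329322 to 161329512 held 25.2, with a fold of 10.2 (95% limits 3.36 and 50.1), and the ratio was 1.21 (95% limits 0.622 and 2.58). Each level was counted in the 191 bp window of its own list. The windows overlapped by 184 bp at Tnfsf18. They overlapped by 82 bp at Tnfsf9, 23 bp at Tnfrsf8 and 90 bp at the Tnfrsf1b region 7.75 kb before the gene, each under 50% of the width. The part of shifted windows in these ratios was not tested. These ratios compare 2 pooled tag sets, and a single wild-type library of cDC2 was labelled, so a difference between sorts or libraries cannot be told apart from one between subsets.

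**Figure D5:**
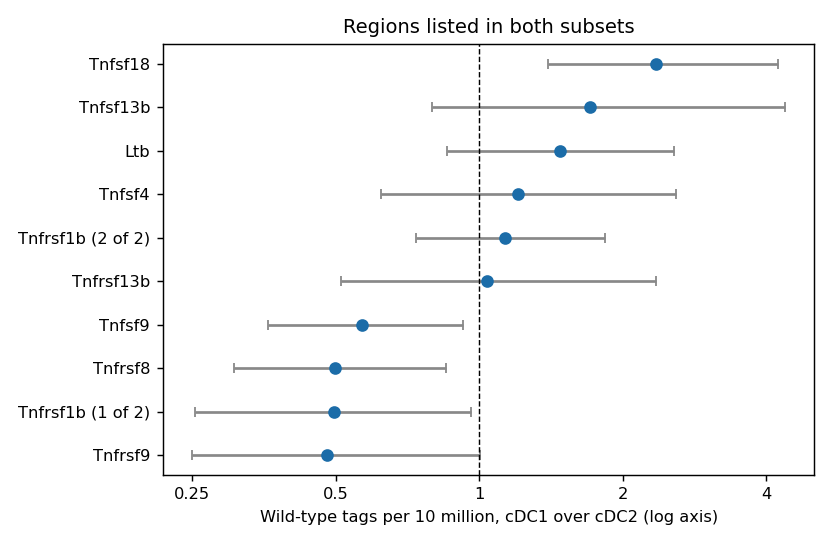
Ratio of normalised wild-type tags, cDC1 over cDC2 (log axis), at the 10 regions of TNF superfamily genes listed in both subsets, as points with exact 95% intervals of the tag counts and a dashed line at 1. Tnfsf18 lies above 1 at 2.35, and Tnfsf9, Tnfrsf8 and a region of Tnfrsf1b lie below it with intervals that leave out 1. Each level was counted in the window of its own list, and these windows overlap only in part.

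Knockout levels differed too at these places. The normalised knockout level was higher in cDC2 in 8 of the 10 regions, with medians of 2.88 in cDC1 and 6.22 in cDC2, and the fold was higher in cDC1 in 8 of 10, with medians of 9.32 and 5.45. Over all 1767 shared regions the knockout medians were 2.47 and 4.39 and the fold medians 14.4 and 6.83, so the lists as a whole differ in the same direction. At the first Tnfrsf1b region, for example, wild-type levels were 54.6 and 48.2 normalised tags, while knockout levels were 2.88 and 11.7. The folds of the 2 lists are therefore not compared as strengths of binding.

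Ligands and their receptors were set side by side. A ligand gene and its receptor gene both had cDC2 peaks for Tnfsf9 and Tnfrsf9, for Tnfsf13b and Tnfrsf13b, and for Lta, whose product as a homotrimer also binds TNFR1 and TNFR2, with Tnfrsf1a and Tnfrsf1b. Both had cDC1 peaks for these pairs and for Tnf with Tnfrsf1a and Tnfrsf1b, Tnfsf8 with Tnfrsf8, Tnfsf10 with Tnfrsf10b, and Tnfsf18 with Tnfrsf18. The counts were uneven for Tnfsf18, with 14 cDC1 peaks, and its receptor gene, with 1. Tnfsf4 and Tnfsf15 had 5 and 9 cDC1 peaks while Tnfrsf4 and Tnfrsf25, their receptor genes, had none. Likewise, Tnfsf13b had 2 cDC1 peaks and 1 cDC2 peak while Tnfrsf13c, for the BAFF receptor, had none. The reverse held for Tnfsf11, Tnfsf12 and Tnfsf14, which had none, and Tnfrsf11a, Tnfrsf12a and Tnfrsf14, with 4, 1 and 2. Tnfsf13 and Tnfrsf17 both had none.

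Of 12 family genes under other symbols, 9 had a cDC1 peak and 1, Fasl, a cDC2 peak (8.33%), next to 51.4% and 9.54% of all genes. Fasl, for the death ligand of Fas, held 10 cDC1 peaks, the highest with 52.4 normalised tags. Cd40, the receptor through which T cells activate dendritic cells, held 1, with 22.3 normalised tags and the lowest listed knockout value. Cd70, Ltbr and Eda2r had no peak in either list, so Ltbr, the receptor of the lymphotoxin heterotrimer, had none while Lta and Ltb did. Of 18 genes that act below the receptors, 16 had a cDC1 peak (88.9%), with 64 peaks in all, and 3 a cDC2 peak (16.7%). Tnfaip3, which encodes the NF-kB inhibitor A20, held 19 cDC1 and 3 cDC2 peaks, with 75.7 normalised tags in its highest cDC1 peak and 69.1 in cDC2. Tank, for a TRAF-binding protein, followed with 14. Ripk1 had no peak in either list, and Traf4 had a cDC2 peak only. In cDC2 the share of the signalling genes was thus below that of the 35 ligand and receptor genes, and in cDC1 above it, a comparison for which no test was made.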

How the data were processed

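The titles gave each CUT&Tag library its subset and genotype. Peaks were called by the authors with HOMER findPeaks in factor style, per the file headers, on a wild-type tag directory with a knockout directory as control. Whether each labelled library entered was not given in the sources used here. Per the same headers, peaks were 191 bp wide, the false discovery rate was 0.001, a fold of at least 4 and a Poisson p of at most 0.0001 were required over knockout, and a fold of at least 4 over the surrounding 10 kb. HOMER, GRCm38 and mm10 are named in the submitters' processing notes. The aligner and the treatment of duplicates were not given in the sources used here.

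Values of the deposited signal column are a peak's wild-type tags scaled to 10000000. Each deposited fold is a ratio, wild-type over knockout tags after the authors brought both to the same depth. The deposited score is HOMER's own and was ranked within a list only. The deposited p-value, a Poisson p over tags, is not reported. The focus ratio, a fraction per the file headers, and the clonal ratio were not used. Tags were brought here to their unscaled numbers, and the knockout depth was worked out from the scaling between columns. At that depth 3 knockout tags are 2.47 normalised tags in cDC1 and 4.39 in cDC2. Folds carry exact (Clopper-Pearson) 95% limits with tags rounded to whole numbers. Repeated tags may be counted more than once, so the limits may be too narrow.

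Genes came from a RefSeq table of GRCm38.p6, and 11 cDC1 peaks and 1 cDC2 peak could not be assigned. A peak inside overlapping genes counted for each. Strands and starts came from the promoter table, which matched 28 members, and for the 7 others gene ends are named lower and upper. Scripts ran in Python 3.11.15 with pandas 2.3.3 and SciPy 1.17.1, and the assignment and the limits were tested on simulated data. The genes and the lists were chosen with earlier results of these data known. Full values were given for the highest-scoring peak of up to 10 members per subset, for shared regions and for peaks over promoters. Promoter windows inside a protein-coding gene were not printed. Further peaks were chosen for description after their values were seen.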

Additional observations from a re-analysis of the deposited data

How the results depend on the processing

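Of 26 alternative values, 13 stayed near the reported one and 13 moved. The 75 cDC1 peaks of the members became 42 within 10 kb of a gene, 25 inside a gene, 40 among the higher-scoring 50% of the list and 47 at or above the lowest cDC2 level. The 22 members with a cDC1 peak became 13 with peaks inside the gene only. In cDC2, the 13 members and 17 peaks became 7 and 7 inside the gene, and 6 and 7 at a fold of at least 8, where 17.1% of members stand against 5.02% of all genes. The 10 shared regions became 6 when 50% of the shorter peak had to overlap and 13 with centres within 1 kb. With only the strongest peak of each gene kept, a choice that favours high levels, the median cDC1 level rose from 15.6 to 24.8 normalised tags. With knockout tags raised to at least 3, the median fold fell from 11.7 to 5.66 in cDC1 and from 6.67 to 4.90 in cDC2, by construction. The median ratio of shared regions, 1.08, became 0.908 when each subset's levels were divided by its median level over all shared regions, 31.3 in cDC1 and 26.2 in cDC2. It lay close to the median ratio over all shared regions, 1.09. The count of 61 cDC1 peaks without Tnfsf18 was chosen after seeing the data. Assignment by the nearest start was not run, because 28 of 35 members had a matched start. No paired analysis was possible because the lists hold pooled tags and no column carries a replicate, and for the same reason no library could be left out. The weakest peak of the cDC2 list had 12.6 normalised tags, and 18 members had a cDC1 peak at or above that level. The cDC2 wild-type set was shallower. HOMER's estimate of the share of wild-type tags in peaks was also lower, at 0.79% in cDC2 and 6.47% in cDC1. The part of each in the length of the lists was not tested.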
